A study of Homo sapiens with 3 samples.

Results

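The lung-tropic strain of the hepatocellular carcinoma (HCC) cell line HCCLM3, subclone1, was compared with its parent strain by small RNA sequencing. All miRNA names whose levels in the parent and subclone1 libraries averaged at least 10 CPM were described. CPM are counts scaled to a library total of 1000000. This rule kept 192 of the 1921 names listed, which together held 99.9% of the counts of either library. The parent was labelled as low in metastasis and subclone1 as more metastatic, specifically to the lung. A further strain, subclone2, which was labelled for spread to lung and celiac lymph node alike, is used only beside called names. Each strain was grown in DMEM, carried no other labelled treatment and gave 1 library. The study's text calls its parental line, an HCCLM3 derivative that carries a red fluorescent protein, highly metastatic, and describes sublines grown from single cells of lung and lymph node metastases in nude mice. The labels do not say which of those clones subclone1 is, so a difference between these libraries may belong to that clone, to this culture or to this preparation, which cannot be told apart. In RNA from whole cultures, fewer cells with a miRNA and less of it per cell cannot be told apart either.

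A miRNA is a short strand cut from a hairpin precursor by the nucleases Drosha and Dicer and loaded into an Argonaute protein. It pairs with target mRNAs mainly through its seed, bases 2 to 8, and lowers their translation and stability. Hairpins that lie close together are often cut from a shared primary transcript, and either arm (5p or 3p) of a hairpin can be loaded. In the liver, miR-122 and the miR-192 and miR-194 pair are known as hepatocyte miRNAs, the miR-200 family marks epithelial cells, and the miR-17-92 cluster is known as a growth-promoting target of MYC. The prefix hsa-, which marks human names, is left out below.

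The sequences of the miRNAs on which the comparison turned are shown with the seed in capitals. They are RefSeq's, 5′ to 3′, with GRCh38.p14 positions, since the count tables hold names only. The first set holds the 6 largest called increases for which RefSeq gave a mature sequence.
miR-1307-5p: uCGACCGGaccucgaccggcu
miR-331-3p: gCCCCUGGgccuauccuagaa
miR-675-5p: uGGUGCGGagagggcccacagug
miR-10a-5p: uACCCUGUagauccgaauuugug
miR-378c: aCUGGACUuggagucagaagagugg
miR-192-5p: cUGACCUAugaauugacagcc
These come from chr10:103394341-103394361 (minus strand), chr12:95308480-95308500 (plus), chr11:1996800-1996822 (minus), chr17:48579904-48579926 (minus), chr10:130962634-130962658 (minus) and chr11:64891203-64891223 (minus). No seed is shared among these 6 miRNAs.

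The second set holds the 6 decreases that were called.
miR-625-3p: gACUAUAGaacuuucccccuca
miR-92a-1-5p: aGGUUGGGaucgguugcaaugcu
miR-20a-5p: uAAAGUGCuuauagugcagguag
miR-4521: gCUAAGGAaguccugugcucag
miR-3144-5p: aGGGGACCaaagagauauauag
miR-17-5p: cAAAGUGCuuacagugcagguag
Their positions are chr14:65471153-65471174, chr13:91351324-91351346, chr13:91351072-91351094, chr17:8186948-8186969, chr6:120015191-120015212 and chr13:91350618-91350640, all on the plus strand. miR-17-5p and miR-20a-5p carry the same seed and differ by C1U and C12U, with positions counted from the 5′ end of miR-17-5p.

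The third set shows called miRNAs beside a relative with the same seed, because reads of such pairs are easily assigned to the wrong name.
miR-1269a: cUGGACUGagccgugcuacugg
miR-1269b: cUGGACUGagccaugcuacugg
miR-378a-3p: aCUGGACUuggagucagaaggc
miR-146a-5p: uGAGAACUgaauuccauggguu
miR-146b-5p: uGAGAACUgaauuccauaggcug
From miR-1269a to miR-1269b the substitution is G13A, and from miR-146a-5p to miR-146b-5p the substitutions are G18A and U21C. miR-378a-3p shares 20 consecutive bases with miR-378c. The levels of all these names are therefore uncertain.

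The parent library held 7902438 counts and subclone1 held 3570864, so the parent was sequenced 2.21 times as deeply. The limit of 10 CPM was equal to 79.0 counts in the parent and 35.7 in subclone1. For a miRNA with 0 counts, the level could be as high as 0.380 and 0.840 CPM. All intervals are exact 95% intervals that cover counting error only, and with 1 library a strain no ratio has a replicate check and no p-value is given. Ligation of adapters favours some RNA ends, so ratios compare the same miRNA between libraries, and levels of different miRNAs describe read counts.

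Most miRNAs stood at similar levels in both strains. The log2 ratio of subclone1 over parent, computed with 0.5 counts added to each library, had a median of 0.02, with quartiles of -0.30 and 0.40. Within 1.5-fold were 136 of the 192 kept miRNAs (70.8%), and 100 ratios were above 0 against 92 below. Depth was enough to separate small differences from counting error, since 132 intervals excluded a ratio of 1 and 60 held it. A call, higher or lower, required a ratio of at least 2-fold and an interval that excluded 1. This rule called 25 miRNAs (13.0%), 19 of them higher (9.90%) and 6 lower (3.12%), and the plot of levels in both libraries shows where they lie. The intervals of 11 higher and 2 lower miRNAs lay wholly beyond 2-fold.

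**Figure D1:**
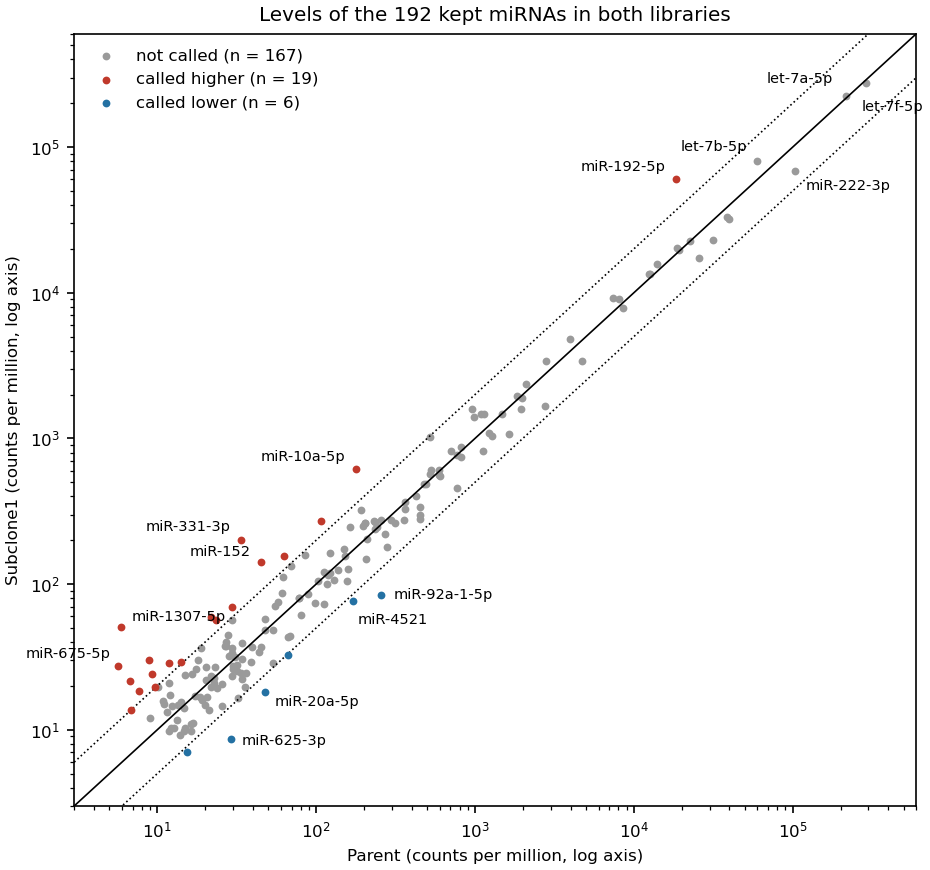
Level of each of the 192 kept miRNAs in the parent (x axis) and subclone1 (y axis) library, in CPM on log axes; the solid line marks equal levels and the dotted lines 2-fold differences. The 19 miRNAs called higher (red) and 6 called lower (blue) lie mostly at the low end, while miR-192-5p is the called miRNA among the abundant ones.

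The calls were unevenly spread over the range of levels. Between 10 and 30 CPM, 12 of 63 miRNAs were called, and the median absolute log2 ratio was 0.51. From 30 to 100 CPM it was 6 of 38, with a median of 0.41, and from 100 to 1000 CPM 6 of 57, with a median of 0.22. Of the 34 miRNAs at or above 1000 CPM, miR-192-5p alone was called, and the median absolute log2 ratio was 0.28. Counting error grew in the same direction, as the median width of the interval on the log2 scale went from 0.04 in the highest range to 0.91 in the lowest.

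In share of counts, the strains differed through a few abundant miRNAs. The summed gains of kept miRNAs amounted to 8.72% of the library, of which the 19 called increases held 4.30 percentage points, nearly all of it miR-192-5p. This miRNA had 146413 counts in the parent and 215131 in subclone1, went from 1.85% to 6.02% of the counts and moved from rank 12 to rank 5. Against this gain stood miR-222-3p, a miRNA known for restraining the cell cycle inhibitor p27. It had 822525 and 245373 counts, and its share was 10.4% in the parent and 6.87% in subclone1, a log2 ratio of -0.60 that was not called.

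Within the let-7 family, whose members are known to restrain growth-promoting mRNAs such as those of RAS and MYC, shares moved in opposite directions. let-7b-5p had 5.997% of the parent counts and 8.02% of subclone1, and let-7a-5p had 21.5% and 22.5%. let-7f-5p had 28.9% and 27.3%, let-7g-5p 2.58% and 1.74%, and let-7i-5p 3.84% and 3.33%. Over all 17 detected names the family summed to 668977 CPM in the parent and 670825 CPM in subclone1, so the sum hardly differed while its parts did. Under other scalings the log2 ratio of let-7a-5p (0.07) changed sign, and those of let-7b-5p (0.42) and let-7g-5p (-0.57) did not. Several of these sequences differ at 1 base, such as let-7a-5p and let-7f-5p (G12A), and the split of reads between them is uncertain. The rest of the 10 largest differences in share were those of miR-221-3p (3.17% and 2.32%), miR-21-5p (3.97% and 3.22%) and miR-103a-3p (1.41% and 1.59%).

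**Figure D2:**
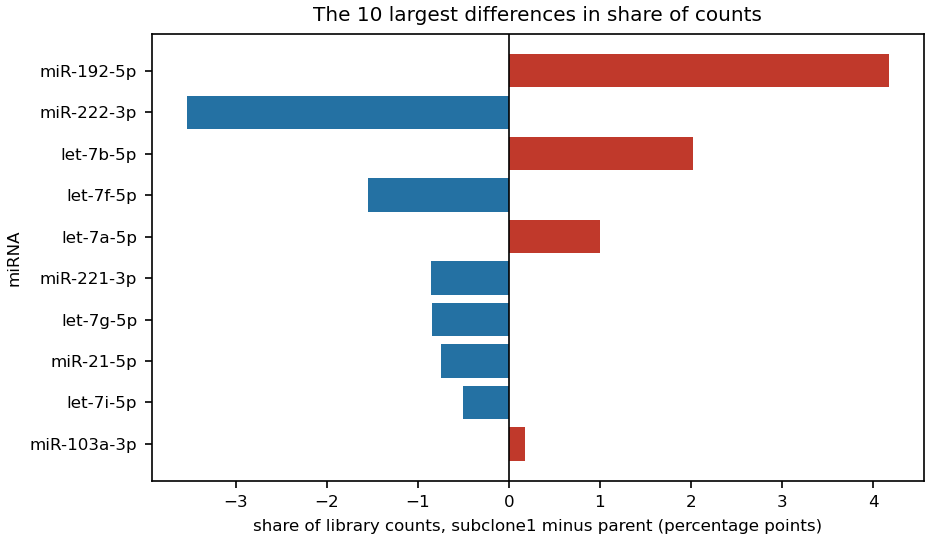
Difference in share of library counts, subclone1 minus parent, in percentage points, for the 10 miRNAs with the largest differences; bars start at 0, red bars are higher and blue bars lower in subclone1. The gain of miR-192-5p (4.17 points) and the loss of miR-222-3p (-3.54 points) are the longest bars, and let-7 members lie on both sides.

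The hepatocyte miRNAs miR-192-5p and miR-194-5p and their cluster partner miR-215 were called higher, so 3 of the 3 kept members of their clusters passed the rule. miR-194-5p had 853 counts in the parent and 967 in subclone1, which corresponds to 108 and 271 CPM and a log2 ratio of 1.33 (interval 1.19 to 1.46). miR-215 had 172 and 211 counts (21.8 and 59.1 CPM), a log2 ratio of 1.44 (1.14 to 1.74). For miR-192-5p the log2 ratio was 1.70 (1.69 to 1.71). miR-122-5p, the defining hepatocyte miRNA, was below the minimum level, with 53 and 19 counts and a log2 ratio of -0.31 (-1.17 to 0.45). For the called members, raw counts were higher in subclone1 although that library was shallower. The hairpins lie in pairs on the minus strand, MIR192 and MIR194-2 on chromosome 11 (64891137 to 64891439, in exons of MIR194-2HG) and MIR194-1 and MIR215 on chromosome 1 (220117853 to 220118241, no annotated host). miR-215 shares 18 consecutive bases with miR-192-5p, which had far more reads, and its level is uncertain.

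miR-1307-5p had the largest ratio of all kept miRNAs. Its counts were 47 in the parent and 181 in subclone1, or 5.95 and 50.7 CPM, a log2 ratio of 3.08 (interval 2.62 to 3.59). The hairpin lies in an exon of ATP5MD, which encodes a subunit of mitochondrial ATP synthase. miR-331-3p, the second in order, had 267 and 720 counts (33.8 and 202 CPM), a log2 ratio of 2.58 (2.37 to 2.79). These intervals overlapped each other.

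A pair of increases were in miRNAs of loci known from development. miR-675-5p, cut from an exon of the imprinted noncoding RNA H19, had 45 counts in the parent and 98 in subclone1 (5.69 and 27.4 CPM), a log2 ratio of 2.26 (1.75 to 2.81). miR-10a-5p, from a hairpin in an intron of HOXB3 that overlaps an exon of HOXB4, had 1405 and 2190 counts (178 and 613 CPM), with a log2 ratio of 1.79 (1.69 to 1.88). It was the only kept member of the HOX miRNAs. The related miR-10b-5p had 5 and 1 counts and was not kept.

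miR-152, which is known to target the DNA methyltransferase DNMT1, had 355 counts in the parent and 503 in subclone1. The levels were 44.9 and 141 CPM, a log2 ratio of 1.65 (1.45 to 1.85). Its relative miR-148b-3p stood at 150 and 173 CPM and was not called (log2 0.21). The MIR152 hairpin (chromosome 17, 48037161 to 48037247, in an intron of COPZ2) lies on the same chromosome and strand as MIR10A.

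The increases also held miR-210 and miR-146a-5p. miR-210, which hypoxia-inducible factors are known to induce, had 184 and 203 counts (23.3 and 56.8 CPM), a log2 ratio of 1.29 (0.99 to 1.58). miR-146a-5p, an NF-kB-induced restraint on innate immune signalling, had 111 and 105 counts (14.05 and 29.4 CPM), with a log2 ratio of 1.07 (0.67 to 1.46), and its call was lost under 2 of 3 other scalings. Its relative miR-146b-5p had 99.0 CPM in the parent and 74.2 in subclone1, and the summed level of the family was 113 and 104 CPM, with an interval of its log2 ratio (-0.30 to 0.06) that held 0.

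miR-1269a and miR-1269b, near-copies from chromosomes 4 and 17, had almost equal ratios. miR-1269a had 494 and 555 counts (62.5 and 155 CPM, log2 1.31, interval 1.14 to 1.49), and miR-1269b had 233 and 247 (29.5 and 69.2 CPM, log2 1.23, interval 0.97 to 1.49). miR-378c differed from its relative. It had 70 and 107 counts (8.86 and 29.96 CPM, log2 1.75, interval 1.31 to 2.21), while miR-378a-3p, with 424 and 402 CPM, had a log2 ratio of -0.08.

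The remaining 6 increases rested on small counts, between 49 and 103 in either library. miR-1, a muscle miRNA, had 53 counts in the parent and 77 in subclone1 (6.71 and 21.6 CPM, log2 1.68). miR-339-5p, from an intron of C7orf50, had 73 and 86 (log2 1.38). miR-2682-5p, from an exon of MIR137HG, had 93 and 103 (log2 1.29), and miR-574-3p, from an intron of FAM114A1, had 61 and 66 (log2 1.26). miR-532-3p had 76 and 70 counts (log2 1.03) and miR-324-5p 54 and 49 (log2 1.01), and both lay just inside the threshold.

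Of the 6 decreases, 3 came from the miR-17-92 cluster on chromosome 13 (91350605 to 91351391, in exons of MIR17HG). miR-92a-1-5p had 2028 counts in the parent and 302 in subclone1, or 257 and 84.6 CPM, a log2 ratio of -1.60 (interval -1.78 to -1.43). miR-20a-5p had 375 and 65 counts (47.5 and 18.2 CPM, log2 -1.37, interval -1.79 to -0.999), and miR-17-5p had 525 and 117 (66.4 and 32.8 CPM, log2 -1.02, interval -1.32 to -0.73). All 6 kept members lay below 0, with a median of -0.94 beside 0.02 over all kept miRNAs. The other members were miR-19b-3p (-0.86), miR-92a-3p (-0.31) and miR-17-3p (-0.30), and the interval of miR-17-3p (-0.73 to 0.10) held 0.

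The other decreases came from separate loci. miR-625-3p, from an intron of FUT8, had 231 counts in the parent and 31 in subclone1 (29.2 and 8.68 CPM), with a log2 ratio of -1.73 (interval -2.34 to -1.21). miR-4521 had 1351 and 274 counts (171 and 76.7 CPM, log2 -1.15, interval -1.35 to -0.97). miR-3144-5p had 122 and 25 counts (15.4 and 7.001 CPM, log2 -1.12), and its interval, -1.82 to -0.51, was the widest among the decreases.

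Some miRNAs lay close to the threshold. Just outside it on the higher side were miR-30a-5p (log2 0.97, on 4132 and 3666 counts), miR-589-5p (0.95) and miR-1268a (0.94). On the lower side they were miR-34a-5p (-0.96, on 255 and 59 counts), miR-505-5p (-0.91) and miR-19b-3p. At the limit of 10 CPM, miR-324-5p (10.3), miR-4652-5p (10.5) and miR-1292 (10.8) were just inside, and miR-644b-5p (9.93), miR-3934 (9.68) and miR-425-3p (9.62) just outside.

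**Figure D3:**
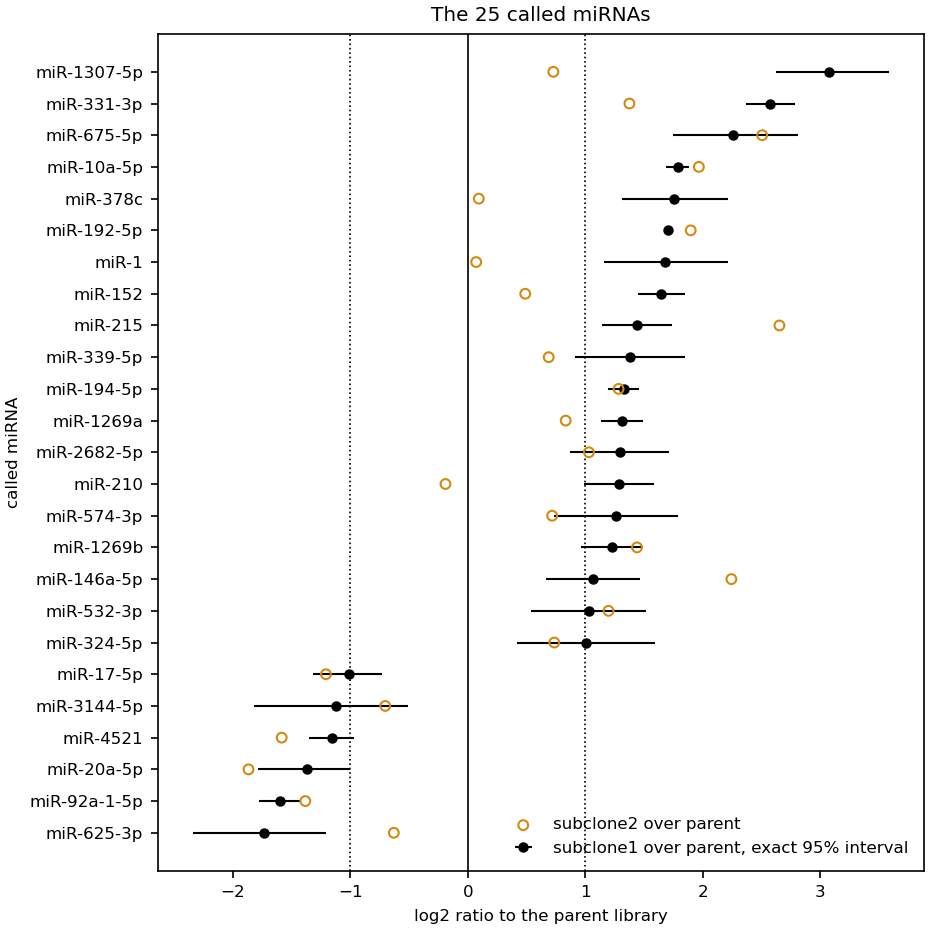
log2 ratio to the parent library of the 25 called miRNAs, with subclone1 as black points and exact 95% intervals for counting error, and subclone2 as open circles; dotted lines mark 2-fold. miR-1307-5p, miR-378c, miR-1, miR-152 and miR-210 lie well to the right of their circles, and miR-215 and miR-146a-5p to the left.

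The called miRNAs were set beside their values in subclone2. Both ratios use the same parent library, so a high or low parent count moves them together. Of the 19 increases, 18 lay above 0 in subclone2 and 10 met the calling rule there. Of the 6 decreases, 6 lay below 0 and 4 met the rule. The same shares over all kept miRNAs were not counted for subclone2, so these counts have no background to be read against. miR-675-5p (2.26 in subclone1 and 2.51 in subclone2), miR-10a-5p (1.79 and 1.97), miR-192-5p (1.70 and 1.90) and miR-194-5p (1.33 and 1.28) were called in both, and for miR-192-5p the intervals did not overlap (1.69 to 1.71 and 1.89 to 1.91).

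A second group of increases was far smaller in subclone2. miR-1307-5p had 45 counts there, with a log2 ratio of 0.73 (interval 0.11 to 1.35) beside 3.08 in subclone1. miR-378c stood at 9.41 CPM in subclone2 (log2 0.09, interval -0.50 to 0.66) and miR-1 at 7.01 CPM (0.07, -0.62 to 0.72), so both intervals held 0. miR-152 had a log2 ratio of 0.49 and miR-331-3p of 1.38, beside 1.65 and 2.58. miR-210 was the increase that lay below 0, with 20.4 CPM in subclone2 and a log2 ratio of -0.19 (-0.57 to 0.17). In all, 12 of the 19 increases were larger in subclone1. Besides miR-675-5p, miR-10a-5p and miR-192-5p, those larger in subclone2 were miR-215 (2.65), miR-146a-5p (2.24), miR-1269b (1.44) and miR-532-3p (1.20).

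Lists of related miRNAs were described by their kept members and medians, to be read against the 9.90% called higher and 3.12% called lower over all kept miRNAs. Members within 0.10 above 0 changed sign under another scaling and are given no direction. Besides the miR-17-92 cluster and the pairs of miR-192, miR-194 and miR-215, no list with at least 3 kept clustered or related members held more than 1 call in a direction. The miR-106b-25 cluster, a relative of miR-17-92 in an intron of the replication gene MCM7, had 5 kept members and a median of -0.57. Its ratios were -0.63 for miR-106b-5p, -0.61 for miR-25-5p, -0.57 for miR-106b-3p, -0.46 for miR-93-5p and 0.28 for miR-25-3p.

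The miR-221/miR-222 cluster had a median of -0.60 over 3 kept members, which with the rare miR-222-5p summed to 138570 CPM in the parent and 93584 CPM in subclone1. The miR-15/miR-16/miR-195 family, known for targeting BCL2 and cyclins, had 5 kept members, all below 0, with a median of -0.27. The intervals of miR-15a-5p (-0.73 to 0.01) and miR-15b-3p (-0.60 to 0.31) held 0. The miR-183/miR-96/miR-182 cluster had 3, all below 0, with a median of -0.33, and the interval of miR-96-5p (-0.58 to 0.01) held 0.

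On the other side, the 3 kept members of the miR-200 family lay above 0. miR-200a-3p had 220 and 160 counts (27.8 and 44.8 CPM, log2 0.69), miR-200b-3p 130 and 86 (16.5 and 24.1 CPM, 0.55) and miR-200c-3p 210 and 135 (26.6 and 37.8 CPM, 0.51). The clusters of miR-23, miR-27 and miR-24 had a median of 0.37 over 8 kept members, led by miR-27a-3p (0.72) and miR-23a-5p (0.68). The miR-30 family had a median of 0.31 over 8 members and the miR-181 family of 0.20 over 6.

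Medians near 0 were those of the miR-29 family (median 0.12), the miR-103/miR-107 pair (0.17), the miR-320 family (0.00) and the miR-26/miR-101 list (-0.17). The miR-193/miR-365 clusters had a median of 0.07, which changed sign under 2 scalings, but their members went from -0.33 for miR-365a-5p to 0.93 for miR-193a-3p. The names miR-365a-3p and miR-365b-3p held identical counts in every library.

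**Figure D4:**
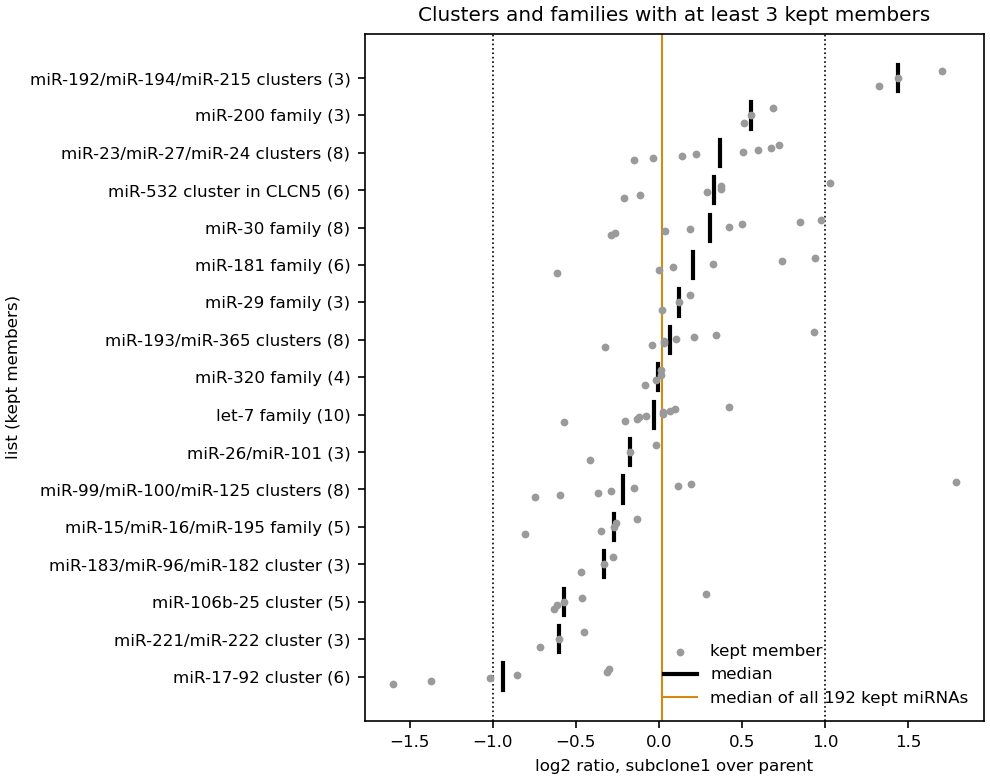
log2 ratio of subclone1 over parent for the kept members (grey points) of each cluster or family with at least 3 of them, with the list's median as a black bar and the median of all 192 kept miRNAs as an orange line; dotted lines mark 2-fold. The miR-17-92 cluster lies lowest (median -0.94) and the miR-192/miR-194/miR-215 clusters highest (1.44).

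Lists named for function gave mixed counts. miRNAs known as p53-induced had 5 kept members, of which the 3 called higher were miR-192-5p, miR-194-5p and miR-215. miR-34a-5p, the best known p53 target among miRNAs, had 32.3 CPM in the parent and 16.5 in subclone1 and was not called. Among 12 kept miRNAs known as MYC-induced, 3 were called lower and 11 lay below 0, and these are the members of the miR-17-92 and miR-106b-25 clusters already given, with miR-378a-3p. Of 7 kept names reported to promote metastasis 0 were called, with a median of 0.10, and of 9 reported to suppress it miR-146a-5p was called higher, a call lost under 2 of 3 other scalings, with a median of 0.03. The signs of these last medians depended on the scaling.

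Shared seeds were examined among families with at least 3 kept members. The seed AAAGUGC, carried by miR-17-5p, miR-20a-5p, miR-106b-5p and miR-93-5p, belonged to miRNAs of the chromosome 13 and chromosome 7 clusters, and all 4 lay below 0 (-1.02, -1.37, -0.63 and -0.46). Their summed level was 1521 CPM in the parent and 1050 CPM in subclone1. The 3 carriers of ACCCGUA, miR-99a-5p (-0.29), miR-100-5p (-0.59) and miR-99b-5p (-0.75), lay below 0 as well. So did the 3 of AGCAGCA from the miR-15 and miR-16 hairpins, although the interval of miR-15a-5p held 0. The sequence is shown for the 2 relatives of miR-17-5p not printed above.
miR-106b-5p: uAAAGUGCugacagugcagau
miR-93-5p: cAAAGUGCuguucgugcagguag
These lie at chr7:100094043-100094063 and chr7:100093815-100093837, both on the minus strand.

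A shared seed did not always go with a shared ratio. Carriers of GUAAACA spanned 1.26 log2 units, with miR-30a-5p at 0.97, miR-30e-5p at 0.03 and miR-30c-5p at -0.29, although miR-30a-5p and miR-30e-5p differ by C13U alone. In the let-7 seed GAGGUAG the 7 kept carriers spanned 0.99 units, from -0.57 for let-7g-5p to 0.42 for let-7b-5p.

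The arms of a hairpin were then compared, which does not depend on how the libraries were scaled. In 38 pairs both arms were kept, and in 5 of them (13.2%) the ratio of 5p to 3p counts passed 2-fold and its interval left out 1. With counts scaled to the library total, the 18 pairs with arms on opposite sides of 0 were nearly as many as the 20 on the same side. These 5 pairs involve the following arms beside those printed above.
miR-1307-3p: aCUCGGCGuggcgucggucgug
miR-625-5p: aGGGGGAAaguucuauagucc
miR-92a-3p: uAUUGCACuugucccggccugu
miR-532-5p: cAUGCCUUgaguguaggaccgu
miR-532-3p: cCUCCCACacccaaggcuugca
miR-30c-5p: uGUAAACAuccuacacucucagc
miR-30c-2-3p: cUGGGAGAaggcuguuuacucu
The miR-1307 arms lie 5p at chr10:103394341-103394361 and 3p at chr10:103394301-103394322, and the miR-625 arms 5p at chr14:65471116-65471136 and 3p at chr14:65471153-65471174.

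At MIR1307 the 5p arm made up 0.718% of the hairpin's counts in the parent (interval 0.528 to 0.954) and 5.51% in subclone1 (4.76 to 6.35). The 3p arm, with 6497 and 3101 counts, had a log2 ratio of 0.08, and the arm ratio differed by 3.01 log2 units (2.54 to 3.51). In subclone2 the 5p share was 1.36%. At MIR625 the 5p share went from 32.7% (27.7 to 37.9) to 64.0% (52.9 to 74.0), on 112 and 55 counts of 5p, and this was the only pair whose more abundant arm differed between the strains.

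In the other 3 pairs the 5p arm was relatively lower in subclone1. miR-532-5p made up 92.4% of its pair in the parent and 83.7% in subclone1, an arm ratio of -1.24 on the log2 scale. miR-92a-1-5p made up 16.6% and 7.55% of the counts it shares with miR-92a-3p (-1.29), and miR-30c-5p 25.04% and 13.1% of those with miR-30c-2-3p (-1.15). A copy of miR-92a-3p comes from MIR92A2 on chromosome X, and miR-30c-5p from hairpins on chromosomes 1 and 6, so neither pair measures a single hairpin. Over all pairs the 5p arm was relatively lower in 25, with an interval that excluded 1 in 15 of them. It was relatively higher in 13, with an interval that excluded 1 in 8. The pairs are not all separate, since miR-181a-5p was paired with both miR-181a-3p and miR-181a-2-3p, and miR-365a-3p and miR-365b-3p hold identical counts. Among all kept names the median log2 ratio was -0.12 for 88 5p names and 0.09 for 66 3p names.

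**Figure D5:**
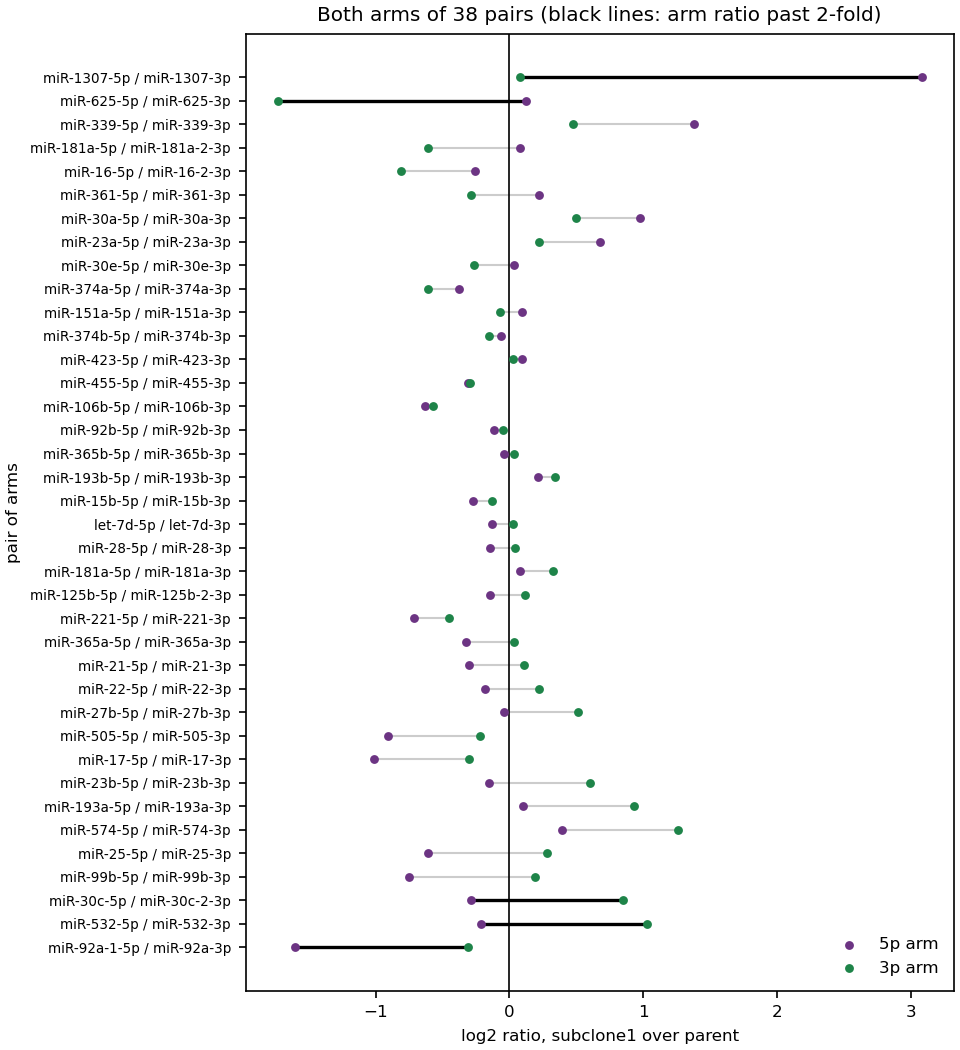
log2 ratio of subclone1 over parent for the 5p (purple) and 3p (green) name of each of 38 pairs, ordered by the difference between arms; lines join the arms of a pair, and black lines mark the 5 pairs whose arm ratio passed 2-fold and whose interval left out 1. The arms of miR-1307 lie 3.01 log2 units apart, and those of miR-625 1.87.

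Hairpins within 10 kb of each other on the same strand formed 26 groups with at least 2 kept names. In 17 of these all kept names lay on the same side of 0 when counts were scaled to the library total. The groups are not independent, since names with several hairpins, such as miR-194-5p and miR-29b-3p, count in more than 1 group. Some of the 17 groups hold ratios close to 0, such as miR-29b-3p (0.02) and miR-421 (-0.001). Over all kept miRNAs, 100 ratios lay above 0 and 92 below. Whether neighbours moved together was not tested. The miR-181c-5p and miR-181d names from NANOS3 on chromosome 19 had 0.94 and 0.74. The chromosome 1 group of miR-181a-5p and miR-181b-5p had 0.08 and 0.00. However, miR-181a-5p also comes from a hairpin on chromosome 9, so its counts do not measure that group alone. The reference placed miR-181b-5p at MIR181B1 alone, which may not be its only hairpin. miR-452-5p and miR-224-5p, in the GABRE gene on chromosome X, had 0.37 and 0.43. In the cluster of miR-99b, let-7e and miR-125a in SPACA6, however, the ratios went from -0.75 for miR-99b-5p to 0.19 for miR-99b-3p. By chromosome, only kept names that the reference placed at 1 hairpin were counted. Names with no placed hairpin or with several were left out, so the counts do not cover every kept name of a chromosome. Some counted names may have further hairpins that the reference did not place. miR-125b-5p, for example, was placed at MIR125B1 on chromosome 11 alone, although a miR-125b-2-3p name is also listed. miR-331-3p, whose sequence is given above on chromosome 12, is among those left out. Of the names so placed, all 5 on chromosome 13 and all 5 on chromosome 3 lay below 0, with medians of -1.02 and -0.46. Most of these chromosome 13 names came from the cluster in MIR17HG already described. The 3 placed on chromosome 4 lay above 0. Over all kept names, 9.90% were called higher and 3.12% lower. Among placed names, chromosome 4 had 2 of 3 called higher and chromosome 11 had 3 of 6. Chromosome 17 had 4 of 16 called higher and 1 lower.

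The base content of the called miRNAs differed between directions. The median GC content was 59.1% for the 15 called increases with a sequence, 46.6% for the 6 decreases and 47.8% for the 138 miRNAs not called. Over the 159 kept names with a sequence, the Spearman correlation of GC content with the log2 ratio was 0.20, and that of length was -0.13. These are correlations across miRNAs within 1 pair of libraries, and the part of base content in the calls was not tested. By first base, 7 of 30 miRNAs that start with C were called higher, 6 of 73 with U, 1 of 9 with G and 1 of 47 with A. Over the 159 kept names with a sequence, 15 were called higher.

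The labelled cell type was checked against marker miRNAs. The hepatocyte list was carried by miR-192-5p and miR-194-5p. miR-122-5p stood at 6.71 and 5.32 CPM and was not kept, and miR-148a-3p had 27 and 24 counts. Markers of other cell types had few counts apart from miR-1, miR-137 and miR-199. The summed counts in parent and subclone1 were 6 and 7 over 6 detected haematopoietic names of 9 listed, 5 and 8 over 2 of 2 endothelial names and 34 and 26 over 4 of 5 neuronal names. Among defining markers, miR-451a had 0 and 1 counts, miR-145-5p 0 and 1, miR-126-3p 1 and 1 and miR-124-3p 0 and 1. Most of the neuronal counts were those of miR-137, with 28 and 20 (log2 ratio 0.67, interval -0.24 to 1.54). The summed counts of fibroblast and smooth muscle names were 73 and 16 (9.24 and 4.48 CPM). They were mostly those of miR-199a-3p and miR-199b-3p, which hold identical counts (31 and 6), so the same reads may enter this sum repeatedly. Each of these names had a log2 ratio of -1.13 with an interval (-2.78 to 0.06) that held 0. Their part in the comparison was not tested. Muscle names summed to 65 and 86 counts, and apart from miR-1 they stayed at or below 6 counts, with miR-133a, cut from the same transcripts as miR-1, at 1 and 1.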

How the data were processed

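Small RNA libraries (Illumina TruSeq Small RNA, 1 ug of Trizol RNA) of cultured HCCLM3 strains were analysed, 1 per strain. The authors deposited unscaled read counts per mature miRNA name. The submitters' processing notes name CASAVA 1.4 and hg19 without a role, and the trimming, the aligner, the miRBase release and the handling of reads that match several names are not given in the sources used here.

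Counts were divided by the column sum (CPM), and names with a mean of at least 10 CPM were kept. Log2 ratios used 0.5 added counts, and their 95% intervals were exact conditional binomial (Clopper-Pearson). Those of CPM and shares were exact binomial, and those of arm ratios were exact conditional intervals of an odds ratio. Names were called at 2-fold or more with an interval excluding 1. The named miRNAs are the called ones, the 10 largest CPM differences, the 5 most abundant of each library, kept members of described lists, both arms of pairs past the arm rule, and the 3 names nearest each threshold. The members and the 38 lists were chosen with earlier results of these data known. Sequences and positions are from RefSeq (GRCh38.p14), which gave sequences for 159 of the 192 kept names. Host genes are from GENCODE 29. None of these was taken from the count tables. The procedure was tested on simulated data. Alternatives were other scalings (edgeR 4.0.16 for TMM), minimum levels, fold thresholds, an interval wholly beyond 2-fold, 5 added counts and identical names merged. Python 3.11.15, pandas 2.3.3, SciPy 1.17.1 and R 4.3.3 were used.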

Additional observations from a re-analysis of the deposited data

Results flagged for a closer look

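Of 633 names detected below the minimum level, 6 had an interval wholly beyond 2-fold in subclone1 over parent, all of them higher. They were picked by this interval and are given as counts and CPM because the comparison did not use them. miR-4454 had 5 (parent), 48 (subclone1) and 65 (subclone2) counts, with 13.4 CPM in subclone1 and a log2 ratio of 4.29 (interval 3.09 to 6.10). miR-4488 had 3, 35 and 40 counts, with 9.80 CPM in subclone1. miR-4508 had 1, 28 and 22 counts, with 7.84 CPM in subclone1 and a log2 ratio of 5.39 (3.36 to 11.31). In subclone2 too, the counts of these 3 exceeded those of the same parent library. miR-1260b had 15, 35 and 16 counts, with 9.80 CPM in subclone1. miR-4439 (0, 5 and 0 counts, 1.4002 CPM in subclone1) and miR-873-5p (0, 6 and 0 counts, 1.68 CPM) were counted in subclone1 alone, and 0 counts allow up to 0.380 CPM in the parent and 0.657 CPM in subclone2.

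miR-210 had ratios on opposite sides of 0 in the strains, with a log2 ratio of 1.29 for subclone1 over parent and -0.19 for subclone2 over parent. The difference between these ratios was not tested, and the interval in subclone2 held 0.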

How the results depend on the processing

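No paired analysis was possible because every strain has just 1 library, and none could be left out. The 19 higher and 6 lower calls became 5 and 2 with a minimum of 100 CPM, 39 and 17 with 1 CPM, 45 and 22 with no minimum, 33 and 23 with a 1.5-fold threshold, 3 and 0 with a 4-fold threshold, and 11 and 2 where the interval had to lie wholly beyond 2-fold. The share of miRNAs within 2-fold was 87.0%, and it was 92.3%, 79.6% and 60.5% with minimums of 100 CPM, 1 CPM and none. These follow from the construction of each alternative.

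Other scalings moved every log2 ratio by -0.06 (TMM), -0.10 (median of ratios) or -0.07 (total without the 10 most abundant names). They gave 24, 24 and 23 calls, of which 23, 22 and 22 were among the 25. miR-324-5p and miR-532-3p were lost under each of the 3, miR-146a-5p under the last 2, and miR-34a-5p was gained as lower under each. With 5 counts added, miR-17-5p and miR-3144-5p were lost. Of 516 values of named miRNAs under alternatives, 417 stayed within the interval of the main ratio, and 99 moved outside it. No called value changed sign. Under the other scalings none could, since a call lies at least 1 log2 unit from 0 and the shifts were far smaller. Uncalled ratios close above 0, such as that of let-7a-5p, did change sign. List medians changed sign in 6 cases, in the miR-193/miR-365 list and both metastasis lists. Depth limits names under 30 CPM, where intervals were widest.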
